A study of Mus musculus with 2 samples.

Results

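The genes described here are those whose annotated transcripts received different calls in C2C12 myoblasts: at least 1 RefSeq entry of the gene symbol carries a number for gene activity and at least 1 other entry of the same symbol carries the word Inactive. By this rule 86 of the 20128 gene symbols in the table were found, or 2.87% of the 2999 symbols that have several entries. They were thus selected on the active or inactive call itself, which the authors derived from the read density of each entry. They hold 220 entries, of which 109 are active and 111 are inactive, where 70.2% of all 24165 entries of the table are active, 29.8% are inactive, and 78.3% of the entries of genes with several entries are active. The C2C12 cell line consists of mouse myoblasts, the precursors that fuse into muscle fibres, and the cultures received no treatment. Global run-on sequencing (GRO-seq) was performed on 2 replicate libraries, which the authors pooled before they computed a single activity per entry. The unit, RPKmM, is the density of sense-strand reads over the gene body, scaled to the mappable length in kilobases and to the sequencing depth. There is no value per replicate, so no difference below has a replicate check and no test was run, and the depth of each library is not in the table. Because the calls and values of these entries chose the genes, their activities are given as a description.

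As background, a mammalian gene is commonly annotated with several transcripts that differ in their start, their end or both. In GRO-seq, nuclei are isolated and engaged polymerases are allowed to extend their RNA with a bromouridine label, so that reads show where polymerases were transcribing and on which strand. Since a gene body is a region of the genome, overlapping transcripts of a gene can share reads, and an entry is not a separate measurement of an RNA molecule. Fewer transcribing cells and less transcription per cell cannot be told apart in such data.

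The cells carried the marks of the labelled line. All 7 myoblast markers examined were active, from 2.39 RPKmM for Myod1, the master factor of the muscle lineage, to 72.45 for Des, the muscle intermediate filament desmin. Of 12 markers of blood, endothelium, epithelium, neurons, fat and liver, 7 were inactive in all entries and the remaining 5 reached at most 0.03. The active entries of the table as a whole have a median of 0.87 RPKmM.

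Most of these 86 genes had very low activity where they were active. Of their 109 active entries, 20 are listed at 0, as are 0.908% of all active entries, and 60 at 0.01, so that 80 entries (73.4%) lie at 0.01 RPKmM or lower, where 6.99% of all 16957 active entries lie. A further 15 entries range from 0.02 to 0.05, and 14 lie above 0.05. At 1 RPKmM or higher there are 7 entries, all of Gnas, where 46.0% of all active entries lie. The median was 0.01, with quartiles of 0.01 and 0.02. The deposited values have 2 decimals, so an active entry at 0 has a density too small for the last of them. Active entries of the 2286 genes with several entries that are all active had a median of 0.93 and quartiles of 0.27 and 2.07, a ratio of 93 to the median here. That ratio divides by a single rounding step and is coarse, and the ratio of geometric means with a pseudocount of 0.01 was 28.1. At the upper end, 8 of the 109 entries lay above the median of all active entries, and these belong to 2 genes, Gnas and Syne1.

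**Figure D1:**
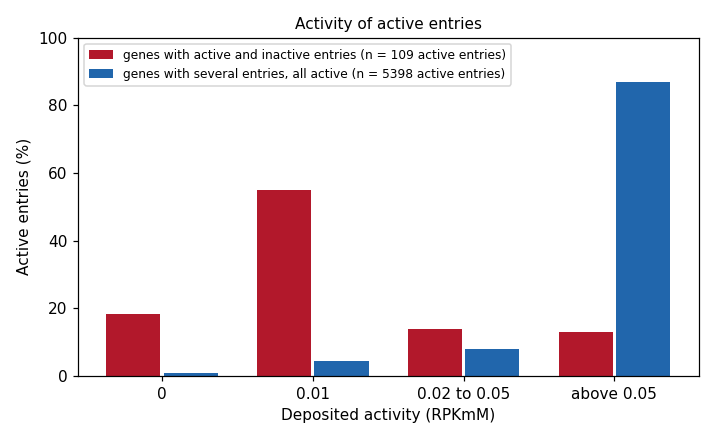
Share of active entries (y axis, percent) in 4 classes of deposited activity (x axis, RPKmM), for the 109 active entries of genes with active and inactive entries (red) and the 5398 active entries of genes with several entries that are all active (blue). In the first group 55% of entries stand at 0.01 and 12.8% above 0.05, and in the second 4.32% and 86.8%.

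The share of genes that the rule takes is given next by activity, as a description only, since the call and the value come from the same reads and an entry near the threshold of the call can fall on either side. Among genes with several entries whose highest active entry is listed at 0, 15 of 28 (53.6%) also had an inactive entry. Where the highest entry is 0.01 the share was 50 of 136 (36.8%), and from 0.02 to 0.05 it was 14 of 196 (7.14%). It was 6 of 852 (0.704%) above 0.05 and below 1, and 1 of 1160 (0.0862%) at 1 or higher, where Gnas is the only such gene. The values just inside the rule are thus the active entries at 0 and 0.01, and those just outside it carry no number, as the table gives none for an inactive entry. By number of entries, 57 of 2245 genes with 2 entries (2.54%) were of this kind, 18 of 553 with 3 entries (3.25%) and 11 of 201 with 4 or more (5.47%).

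**Figure D2:**
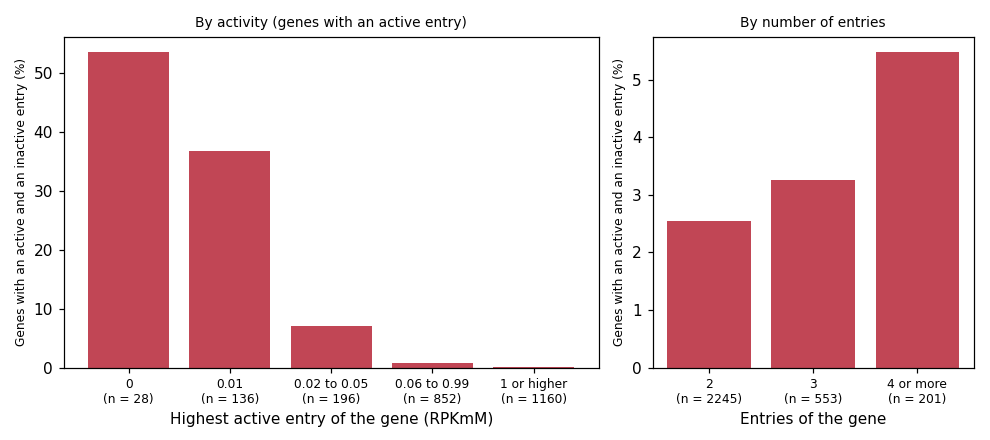
Share of genes with an active and an inactive entry (y axes, percent) among genes with several entries, by their highest active entry in RPKmM (left, genes with an active entry) and by their number of entries (right). Bars are shares, and n is the number of genes in each class. The share is 53.6% where the highest entry is listed at 0 and 0.0862% where it is 1 or higher.

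Of the 86 genes, 57 have 2 entries, for which the rule allows only 1 active and 1 inactive entry. Among the 29 with more entries, the inactive entries are in the majority in 16 and the active ones in 11, and Ddo and Zap70 have 2 of each. A single active entry was found in 72 genes. In the other 14 the active entries could be compared with each other, and in 10 of them all deposited values were equal. The exceptions are Gnas, Syne1, Dlg2 and Dpp6. Dlg2, which encodes a scaffold protein of the postsynaptic density, has active entries at 0.01 and 0 beside 1 inactive entry. Dpp6, an auxiliary subunit of potassium channels, has 0.01, 0.01 and 0 beside 1 inactive entry. In both, the difference is 1 rounding step.

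**Figure D3:**
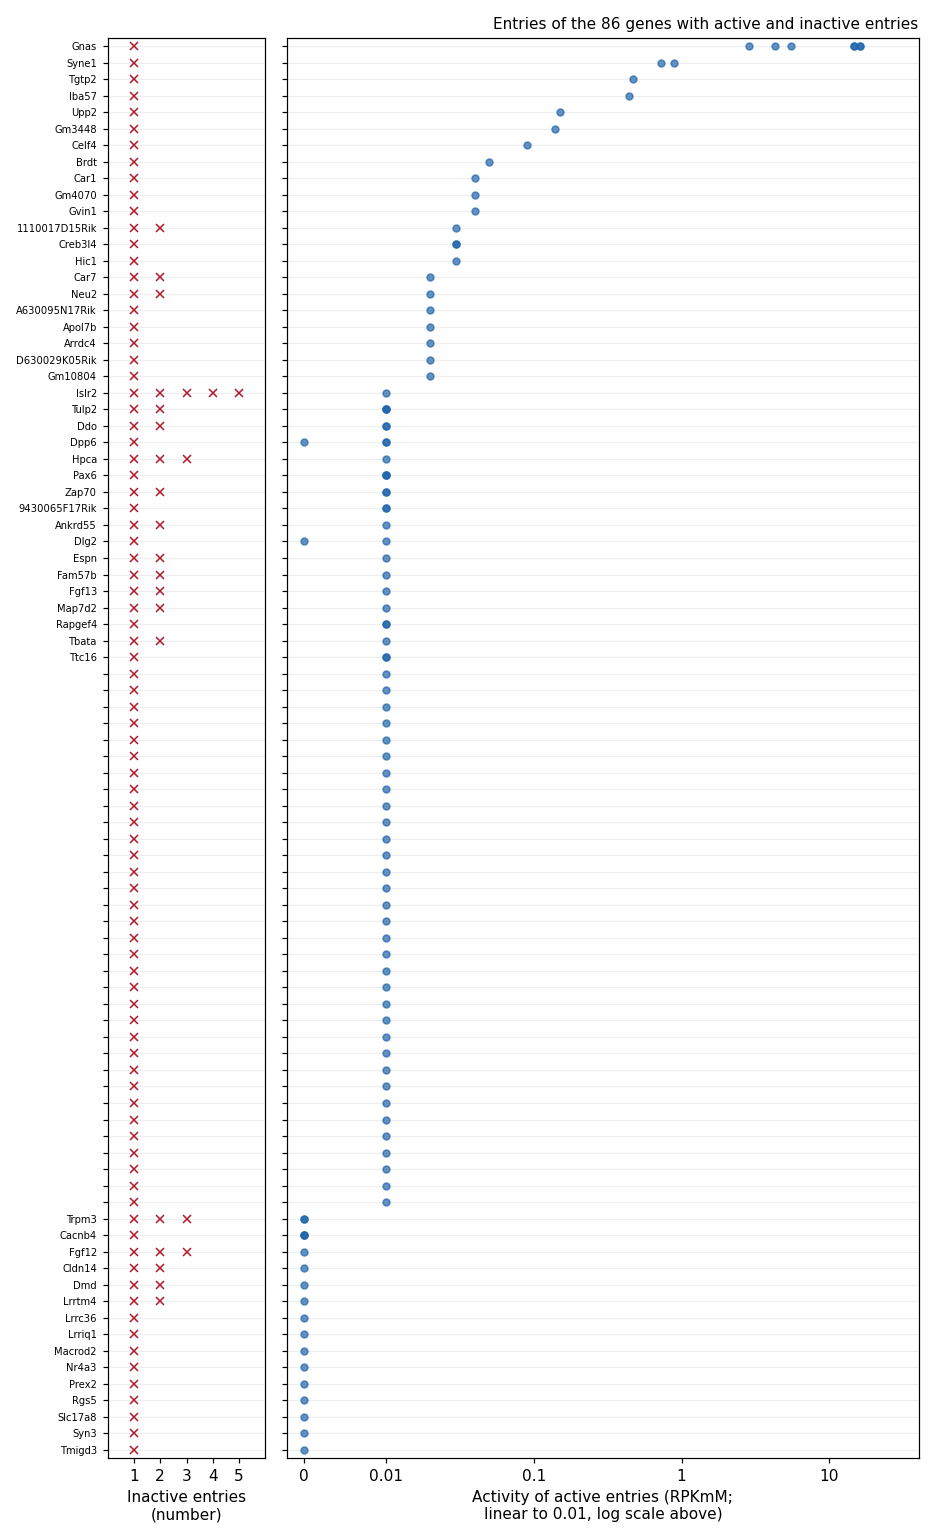
All entries of the 86 genes, ordered by the highest active entry and then by the number of entries, with unlabelled rows for genes of 2 entries that reach 0.01. Blue points are the activities of active entries (x axis, RPKmM, linear to 0.01 and on a log scale above, equal values overlaid), and red crosses in the left panel count the inactive entries of each gene. Gnas reaches 16.04, and 65 of the 86 genes have no entry above 0.01.

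Gnas, the imprinted locus of the stimulatory G protein alpha subunit, was the most active gene of the group and has the most entries. Its 8 entries include 7 active ones, at 2.84 (NM_019690), 4.31 (NM_022000), 5.53 (NM_001077507), 14.58 (NM_001310083), 14.69 (NR_003258), 16.03 (NM_201616) and 16.04 RPKmM (NM_001077510). The remaining entry, NM_201617, is inactive. The 4 highest entries lie close together, while the 3 lowest stand apart from them, and the highest is 5.65 times the lowest. Syne1 is the only other gene with several active entries that differ and lie above 0, and its ratio is 1.24, while Dlg2 and Dpp6 have no ratio because an active entry is listed at 0. The lowest active entry of Gnas already exceeds 83.6% of all active entries of the table, and its highest exceeds 98.4%. The inactive entry of Gnas is thus beside high values and not beside values near the rounding step. In the GENCODE vM1 annotation of mm9, the genome build of the files, Gnas spans chr2:174109821-174172245 on the plus strand, with 22 transcripts and 16 start positions spread over 60330 bases. The locus is known for alternative first exons with promoters of their own.

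To show how different the regions before these starts are, the RefSeq sequence of the 250 bases before 3 of the 4 Gnas starts listed for build GRCm38.p6 is given, 5′ to 3′ on the plus strand with each CG dinucleotide in capitals. The start that lies within 250 bases of another is left out. They lie at chr2:174284070-174284319, chr2:174327499-174327748 and chr2:174329756-174330005 of GRCm38.p6, and the reference does not tie them to single entries of the table.
Gnas start 1: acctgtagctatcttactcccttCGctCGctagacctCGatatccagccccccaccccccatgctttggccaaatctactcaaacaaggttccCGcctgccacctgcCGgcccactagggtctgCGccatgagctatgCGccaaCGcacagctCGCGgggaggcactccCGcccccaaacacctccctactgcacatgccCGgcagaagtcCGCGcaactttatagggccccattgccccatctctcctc
Gnas start 2: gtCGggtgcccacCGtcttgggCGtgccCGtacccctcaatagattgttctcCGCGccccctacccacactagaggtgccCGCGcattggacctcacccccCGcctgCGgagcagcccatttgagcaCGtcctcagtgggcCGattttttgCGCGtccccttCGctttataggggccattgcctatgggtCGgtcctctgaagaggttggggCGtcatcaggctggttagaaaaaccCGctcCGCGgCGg
Gnas start 3: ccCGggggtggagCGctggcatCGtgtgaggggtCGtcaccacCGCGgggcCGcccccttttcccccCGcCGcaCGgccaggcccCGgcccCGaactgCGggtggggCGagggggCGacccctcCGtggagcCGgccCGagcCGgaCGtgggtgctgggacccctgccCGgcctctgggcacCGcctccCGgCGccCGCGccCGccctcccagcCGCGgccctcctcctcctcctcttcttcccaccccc
The first holds 14 CpG dinucleotides, the second 21 and the third 29, and their content of G and C is 61.6%, 63.2% and 80.0%. A TATAAA motif on either strand is present before the first and the second and not before the third.

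Syne1 encodes nesprin-1, a very large protein that links the nuclear envelope to the cytoskeleton and anchors nuclei in muscle. Its active entries are at 0.72 (NM_001079686) and 0.89 RPKmM (NM_022027), and NM_153399 is inactive. Both active values are near the median of the table, as 44.8% of all active entries lie below the first and 50.6% below the second. The gene spans chr10:4795849-5326338 of mm9 on the plus strand, or 530 kb, and vM1 lists 4 transcripts with start positions up to 481629 bases apart. In GRCm38.p6, RefSeq places the gene on the minus strand with 3 starts, at which the preceding 250 bases lie at chr10:5550693-5550942, chr10:5488315-5488564 and chr10:5069064-5069313. These are printed in the direction of transcription with CG in capitals, since they contrast with those of Gnas.
Syne1 start 1: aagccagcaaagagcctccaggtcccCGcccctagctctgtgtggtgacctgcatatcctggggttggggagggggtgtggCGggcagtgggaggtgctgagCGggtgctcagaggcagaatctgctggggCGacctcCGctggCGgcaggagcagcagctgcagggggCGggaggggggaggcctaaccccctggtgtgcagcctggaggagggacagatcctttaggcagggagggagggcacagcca
Syne1 start 2: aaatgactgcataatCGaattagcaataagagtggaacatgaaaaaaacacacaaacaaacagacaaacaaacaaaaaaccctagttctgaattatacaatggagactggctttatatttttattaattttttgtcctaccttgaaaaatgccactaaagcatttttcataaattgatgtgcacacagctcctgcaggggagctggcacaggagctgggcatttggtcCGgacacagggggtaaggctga
Syne1 start 3: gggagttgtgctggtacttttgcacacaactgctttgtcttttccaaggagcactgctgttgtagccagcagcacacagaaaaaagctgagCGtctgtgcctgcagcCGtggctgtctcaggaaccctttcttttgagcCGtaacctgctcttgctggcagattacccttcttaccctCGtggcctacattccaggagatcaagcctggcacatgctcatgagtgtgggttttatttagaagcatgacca
They hold 7, 2 and 4 CpG dinucleotides, fewer than any of the Gnas starts printed. The second holds a TATAAA motif on the opposite strand only, read as TTTATA in the printed bases.

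Iba57 takes part in the assembly of iron-sulfur clusters in mitochondria. Its entry NM_173785 had an activity of 0.44 RPKmM, above 34.0% of all active entries, and NM_001270791 is inactive. The locus is short, at 8.37 kb on chr11:58968871-58977241 of mm9, where vM1 lists it under an older name. The 250 bases before the RefSeq start (chr11:59163746-59163995 of GRCm38.p6, minus strand) hold 15 CpG dinucleotides.
Iba57 start 1: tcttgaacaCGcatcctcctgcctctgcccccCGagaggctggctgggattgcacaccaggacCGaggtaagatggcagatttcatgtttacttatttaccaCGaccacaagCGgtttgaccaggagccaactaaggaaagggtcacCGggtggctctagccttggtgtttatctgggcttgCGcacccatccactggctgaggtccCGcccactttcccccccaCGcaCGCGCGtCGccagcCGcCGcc

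Of the other 4 genes above 0.05, Tgtp2, an interferon-inducible GTPase, had 0.47, and Upp2, a uridine phosphorylase, had 0.15. Upp2 has NM_001289660 as its active entry and NM_001289659 as its inactive one, in a locus of 226 kb on mm9. Gm3448, a predicted gene, had 0.14, and Celf4, an RNA-binding protein of the nervous system, had 0.09 for NM_001146292 with NM_001146295 inactive. Each of these genes has a single active and a single inactive entry.

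In 6 of the 86 genes both calls are attached to the same RefSeq identifier, which the table lists 2 times. These are Tgtp2 (NM_001145164, 0.47 and inactive), Gm3448 (NM_001123367, 0.14 and inactive), Gvin1 (NM_001039160, 0.04 and inactive), Gm4070 (NM_001243039, 0.04 and inactive), Apol7b (NM_001024848, 0.02 and inactive) and Gm1604b (NM_001033442, 0.01 and inactive). Gvin1 is an interferon-induced very large GTPase and Apol7b belongs to the apolipoprotein L family. Gvin1 and Gm4070 are the same in value, and vM1 places them at chr7:113300049-113358854 and chr7:113043632-113102484 on the minus strand of mm9, with lengths of 58.8 and 58.9 kb. The table gives no positions for the listings, and whether they are near-identical copies was not tested. The values of these 6 genes are therefore given as uncertain. Altogether 31 identifiers are listed more than once, of which 21 are inactive in every listing, 4 are active in every listing and 6 (19.4%) are those of the genes named here. In the other 80 genes the calls differ between different identifiers.

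Dmd encodes dystrophin, which links the cytoskeleton of the muscle fibre to its membrane and extracellular matrix, and it is the only one of the 86 in the list of muscle genes. Its entry NM_007868 is active but listed at 0 RPKmM, and NM_001314038 and NM_001314034 are inactive. Dmd is 1 of the 12 muscle genes with several entries (8.33%), where 2.87% of all genes with several entries had both calls. The remaining 11 muscle genes with several entries are active in all of them, as are 76.2% of all genes with several entries. Their highest entries range from 0.13 for Mb, the oxygen store myoglobin, to 19.12 for Tpm1, a tropomyosin of the thin filament, with a median of 0.90. Tnnt2, a troponin T, reached 2.91, and Musk, the kinase that organises the neuromuscular junction, reached 0.90. With a span of 2257 kb on chrX:80194209-82451480 of mm9, Dmd is the longest locus among these genes, and vM1 gives it 14 start positions spread over 2229066 bases. The 250 bases before both RefSeq starts listed for Dmd (chrX:82948620-82948869 and chrX:85048045-85048294 of GRCm38.p6, plus strand) are shown because they lie far apart within the gene and differ in CpG number.
Dmd start 1: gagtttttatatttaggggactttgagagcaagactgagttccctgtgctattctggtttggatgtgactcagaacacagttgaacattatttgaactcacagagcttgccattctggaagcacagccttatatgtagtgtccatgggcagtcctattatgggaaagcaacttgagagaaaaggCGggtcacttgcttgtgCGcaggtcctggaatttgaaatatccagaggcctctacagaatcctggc
Dmd start 2: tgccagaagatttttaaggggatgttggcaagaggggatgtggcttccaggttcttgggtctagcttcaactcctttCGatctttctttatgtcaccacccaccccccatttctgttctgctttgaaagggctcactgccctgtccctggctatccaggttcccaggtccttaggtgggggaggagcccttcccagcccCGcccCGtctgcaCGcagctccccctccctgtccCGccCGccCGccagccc
The first holds 2 CpG dinucleotides and a TATAAA motif on the opposite strand only, read as TTTATA in the printed bases. The second holds 7 CpG dinucleotides and no such motif on either strand.

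In the list of ion channels, 4 of the 47 genes with several entries had both calls (8.51%), 20 were active throughout and 23 inactive throughout. Over all genes with several entries the shares are 2.87%, 76.2% and 20.9%. Cacnb4, a beta subunit of voltage-gated calcium channels, has 3 active entries, all listed at 0, and 1 inactive entry. Trpm3, a heat-sensitive cation channel, has 2 active entries at 0 and 3 inactive ones. Asic1, an acid-sensing channel, and Kcns2, a potassium channel subunit that is silent on its own, each have 1 entry at 0.01 and 1 inactive entry. The 20 channel genes active in all entries had highest entries from 0.01 to 13.5, with a median of 0.215. In the list of solute carriers whose symbol begins with Slc and a digit, 1 of 62 genes had both calls, namely Slc17a8, a vesicular glutamate transporter, with 1 entry at 0 and 1 inactive.

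In the list of homeobox and developmental factors, 2 of the 37 genes with several entries had both calls (5.41%, against 2.87% of all genes with several entries), 24 were active throughout and 11 inactive throughout. Pax6, a master factor of eye development, has 3 active entries (NM_001244198, NM_001244200 and NM_001244202), each at 0.01, and NM_001310145 is inactive. Lhx3, a LIM homeobox factor of pituitary and motor neuron development, has 1 entry at 0.01 and 1 inactive. The 24 factors active in all entries ranged in their highest entry from 0 for Sox6 to 10.56 for Runx1, with a median of 1. Most lists were drawn up from the start of the symbol and do not hold every gene of a kind. No gene with several entries had both calls in the lists of zinc finger genes (52 genes), neurotransmitter receptors (15 genes), cytokines and chemokines (26), adhesion genes (22), matrix genes (15), GPCRs (19), cytochrome P450 and conjugating enzymes (12), small RNA and host genes (3) and kinases and phosphatases (69). Nothing is read from these zeros, as the overall share of 2.87% leaves few such genes in lists of this size. The lists also miss genes of the same kinds whose symbols begin otherwise, among them Zap70, Sgk2, Hic1, C5ar2, Lrrtm4, Cldn14 and Slco1a5, described with the remaining genes. The largest of the lists, genes with clone-derived or predicted names, contributed 16 of 203 (7.88%), while 97 of the 203 were active throughout and 90 inactive throughout, where the shares over all genes with several entries are 2.87%, 76.2% and 20.9%.

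The remaining genes are ordered here by the role of their products, an order chosen after their values were seen and not tested as a theme. Several act in neurons or glia. Those with an active entry at 0.01 are Dlg2 and Dpp6, described above, together with Rims2, a protein of the synaptic active zone, Hpca, the calcium sensor hippocalcin, Fgf13, an intracellular regulator of sodium channels, Rapgef4, a cAMP-activated exchange factor, Islr2 and B3gat1. Islr2 stands out by its entries, as 5 are inactive and only NM_001161541 is active, the highest number of inactive entries among the 86 genes. Hpca has 3 inactive entries beside NM_001286083 at 0.01, and Fgf13 has 2 beside NM_001290414. Rapgef4 is divided the other way, with 2 entries at 0.01 and 1 inactive. The glial genes Ncmap, a myelin protein, Gfap, the astrocyte intermediate filament, and Gal3st1, which makes the myelin lipid sulfatide, each have 1 entry at 0.01 and 1 inactive. Listed at 0 are Fgf12, a relative of Fgf13, with 3 inactive entries, Lrrtm4, a synaptic adhesion protein, with 2, and Syn3, a synapsin, with 1.

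Other genes are known from immune cells. Zap70, the kinase of the T cell receptor, has 2 entries at 0.01 (NM_009539 and NM_001289766) and 2 inactive ones (NM_001289765 and NM_001289612). C5ar2, a receptor of complement C5a, Entpd1, the ectonucleotidase CD39, Hk3, a hexokinase, and Dpep2, a dipeptidase, each have 1 entry at 0.01 and 1 inactive. Among genes of the germ line, Brdt, a testis bromodomain protein, was highest, at 0.05 for NM_054054 with NM_001079873 inactive. Tulp2, of the tubby-like family, has 3 entries at 0.01 and 2 inactive. Tbata and Ttc16 are divided as 1 against 2 and 2 against 1, with their active entries at 0.01, and Ccdc83 has 1 entry at 0.01 and 1 inactive. All of these values other than that of Brdt are within 1 rounding step of 0.

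Enzymes and transporters included both carbonic anhydrases of the group, Car1 at 0.04 with 1 inactive entry and Car7 at 0.02 with 2 inactive entries. Neu2, a cytosolic sialidase, had 0.02 with 2 inactive entries. Ddo, which oxidises D-aspartate, has 2 entries at 0.01 and 2 inactive ones, 1 of them the noncoding NR_133568. Hpn, the serine protease hepsin, Plcd4, a phospholipase C, Sgk2, a protein kinase, Slco1a5, an organic anion transporter, and Mfsd4b5 each have 1 entry at 0.01 and 1 inactive. Arrdc4, an alpha-arrestin, had 0.02.

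Transcription factors outside the lists were Hic1, a zinc finger repressor, at 0.03 with 1 inactive entry, Creb3l4, a factor tethered to the endoplasmic reticulum, with 2 entries at 0.03 and 1 inactive, and Nr4a3, an orphan nuclear receptor, at 0 with 1 inactive. Structural and membrane proteins were Espn, the actin-bundling espin, Fam57b (named Tlcd3b in the later RefSeq table) and Map7d2, which binds microtubules, each with 1 entry at 0.01 and 2 inactive. Ankrd55 has the same division, and Ankrd60, Lemd1, Smagp, Tmem150b and Tmem184a have 1 entry at 0.01 and 1 inactive. Listed at 0 are Cldn14, a claudin of tight junctions, with 2 inactive entries, and Lrrc36, Lrriq1, Macrod2, Prex2, Rgs5 and Tmigd3 with 1 each. Rgs5, a regulator of G protein signalling known from pericytes, and Prex2, an exchange factor of Rac, are among those. Thus 15 of the 86 genes have no active entry above 0, and 50 reach 0.01 and no further.

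Of the 16 genes with clone-derived or predicted names, Gm3448, Gm4070 and Gm1604b were described with the repeated identifiers. 1110017D15Rik reached 0.03 with 2 inactive entries, and A630095N17Rik, D630029K05Rik and Gm10804 reached 0.02 with 1 inactive entry each. The others, 0610040F04Rik, 1600002D24Rik, 1700123J17Rik, 9430065F17Rik, AI182371, C130046K22Rik, D630024D03Rik, Gm16157 and Gm5082, have all active entries at 0.01 and 1 inactive entry each. Noncoding identifiers, which begin with NR, made up 10 of the 111 inactive entries (9.01%) and 11 of the 109 active entries (10.1%) of the 86 genes. They made up 5.89% of entries in genes with several entries that are all active and 12.4% in those that are all inactive. In 9 genes all identifiers are noncoding, in 75 all are coding, and Gnas and Ddo have both kinds.

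The length of the locus is not a value of the rule, but the call depends on read number and mappable length as well as on density, so length is not independent of it. A locus in vM1 on mm9 was found for 82 of the 86 genes, 77 by symbol and 5 by an older name. These loci lie on 18 chromosomes, with 12 on chromosome 2 and 11 on chromosome 7. The share of all genes on each chromosome is not given here, so nothing is read from these numbers. The median length was 31.2 kb (quartiles 13.8 and 89.5), against 36.1 kb (16.1 and 88.9) for the 2208 genes with all entries active and a locus, and 29.5 kb (11.1 and 90.2) for the 588 with all entries inactive. The quartiles of the 3 groups largely coincide. The upper tail held 8 of these 82 genes above 500 kb (9.76%), against 1.81% and 4.25% of the other groups. These 8 are Dmd, Macrod2 (1998 kb), Dlg2 (1945 kb), Dpp6 (910 kb), Trpm3 (851 kb), Lrrtm4 (791 kb), Syne1 (530 kb) and Fgf13 (506 kb). All-active genes of low activity had such loci too. With the highest entry at 0, the share above 500 kb was 28.6% of 14 genes here and 15.4% of 13 all-active genes. At 0.01 it was 6.25% of 48 and 8.54% of 82, and from 0.02 to 0.05 it was 0% of 13 and 2.29% of 175. Above 0.05 it was 14.3% of 7 and 1.39% of 1938.

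The lengths by activity are given as a description, since the classes are set by the values and calls of the rule. Genes with no entry above 0 had a median of 267 kb (n = 14), from 40.3 kb for Rgs5 to Dmd, while those reaching 0.01 had 25 kb (n = 48) and those from 0.02 to 0.05 had 15.6 kb (n = 13). In genes whose entries are all active, the same classes had medians of 133 kb (n = 13), 48.6 kb (n = 82) and 34.5 kb (n = 175). Both groups had their longest median among genes listed at 0. Above 0.05 the median was 62.4 kb for 7 of the 86 genes and 35.4 kb for the all-active genes. No test across genes was run for these medians, and the length of each entry is not in the table, so the lengths of an active and an inactive entry of a gene were not compared.

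**Figure D4:**
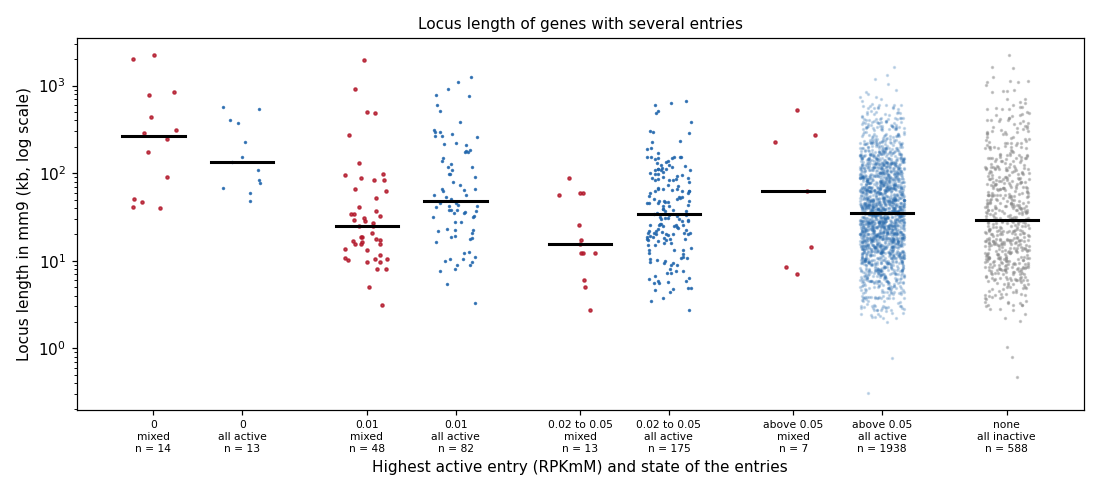
Length of the mm9 locus (y axis, kb, log scale) of genes with several entries, by their highest active entry in RPKmM and by whether they have both calls (mixed, red), active entries only (blue) or inactive entries only (grey). Each point is a gene and each bar a median, which is 267 kb for mixed genes listed at 0 and 25 kb for those at 0.01.

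The sequence before the starts was not used by the rule. RefSeq promoters of build GRCm38.p6 were matched by symbol for 72 of the 86 genes, with 137 starts, and 45 of the 72 have several starts. In the 250 bases before the start, the median number of CpG dinucleotides was 6 (quartiles 3 and 15) for these genes, 12 (5 and 21) for genes with all entries active and 5 (2 and 10) for genes with all entries inactive. Over all 32851 starts of the RefSeq promoters it was 6. Those starts belong to 27025 symbols, more than the 20128 of the activity table, and are called all starts below. At least 15 CpG dinucleotides were found before 37 of the 137 starts (27.0%), against 43.5% and 16.0% in the other groups and 27.3% of all starts. Cacnb4 had the highest number, 37 before 1 of its 3 starts, though its active entries are listed at 0. Macrod2, also at 0, had 29 and 30, and Upp2, at 0.15, had 29 before 1 of its starts. Starts of the 6 genes above 0.05 had a median of 14.5, from 2 before a start of Syne1, Upp2 and Tgtp2 to 29 before a start of Gnas and Upp2. That median rests on Gnas, which supplies 4 of the 12 starts, and without it the other 8 starts had a median of 5.5. Starts of the 55 genes at 0.01 or lower had a median of 6. The motif TATAAA, searched on both strands so that TTTATA counted as well and a start with both counted as 1, was present before 18 of the 137 starts (13.1%). It was present before 7.28% of starts of all-active genes, 12.5% of all-inactive genes and 12.4% of all starts. These are matches of letters and not binding sites, and the starts of a gene share neighbouring sequence where they lie close together.

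**Figure D5:**
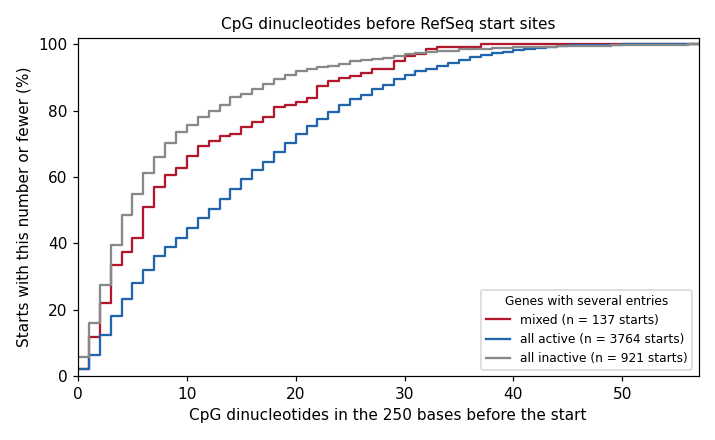
Cumulative share of RefSeq starts (y axis, percent) by the number of CpG dinucleotides in the 250 bases before the start (x axis), for genes with several entries that have both calls (red), active entries only (blue) or inactive entries only (grey). The medians are 6, 12 and 5.

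GRO-seq reads can continue past the end of a gene, so the genes upstream on the same strand were examined. An active gene of the table ended within 10 kb before the start of the mm9 locus for 9 of the 82 genes (11%), against 15.8% of genes with all entries active and 5.95% of those with all entries inactive. None of the 82 overlapped an active gene of the table on the same strand, and neither did most others, as 3.03% of all-active and 0.510% of all-inactive genes did. In the cases given here the neighbour had the higher activity. That was nearly fixed by the choice, as only active neighbours were taken and 84.7% of all active entries lie above 0.05. Gal3st1, at 0.01, lies 3632 bases downstream of Pes1, at 1.79, and Gfap, at 0.01, lies 4617 bases downstream of Kif18b, at 1.54. Hic1, at 0.03, follows Ovca2, at 1.73, by 6423 bases and Dph1, at 0.46, by 8124 bases. Hk3 follows Uimc1, at 1.28, by 6495 bases, and Ankrd60 follows Ppp4r1l-ps, at 0.96, by 955 bases. Lhx3 follows Qsox2, at 0.88, by 876 bases, and 1110017D15Rik follows Fam219a, at 0.56, by 358 bases. Tmem184a follows Psmg3, at 0.48, by 3677 bases. The part of these neighbours in the calls was not tested.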

How the data were processed

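GRO-seq libraries of untreated C2C12 myoblasts, 2 replicates, were analysed from the 1 deposited table, with both libraries pooled by the authors. Per the labels and the methods, reads were mapped to mm9 with Bowtie2 after base calling with CASAVA 1.8, reads that did not qualify were trimmed at the 3′ end and aligned again, uniquely mapped reads were kept, and reads at rRNA and tRNA repeats were discarded. The authors deposited activity as RPKM over mappable bases (RPKmM), from sense-strand reads over gene bodies, rounded to 2 decimals. They wrote Inactive where a Poisson comparison with gene deserts did not pass their false discovery rate, so that a call depends on read number and mappable length as well as on density. The column also holds words, so its unit rests on its name and the methods and was not tested from the values. Rounding leaves no whole reads to recover, so no depth per library and no counting interval per entry could be had.

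Entries were grouped by gene symbol, and counts, shares, medians and ratios were computed with Python 3.11.15, numpy 2.4.6, pandas 2.3.3 and scipy 1.17.1, with figures by matplotlib 3.10.9. The grouping was tested on simulated data. Loci came from GENCODE vM1 on NCBIM37 (mm9), and promoters and current names from RefSeq GRCm38.p6, without conversion between builds. Of 220 entries, 217 were found in RefSeq and 214 under the same symbol. The members, the 14 gene lists and the rule for named genes were chosen with earlier results of these data known. The rule named the 10 genes of highest activity, genes with repeated identifiers, with 4 or more entries or over 1 inactive entry, with active entries differing by 10 times, in a list, or active only at 0. The rest are given by name and value, except that 1 gene of the group and the neighbour of another are not reported here. Alternatives merged repeated identifiers, left them out, dropped noncoding identifiers, changed the treatment of low values, or used 1 value per gene.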

Additional observations from a re-analysis of the deposited data

How the results depend on the processing

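Of 24 alternative values computed, 21 stayed close to the reported value, within 1.5 times for counts. The number of genes with both calls was 80 with repeated identifiers merged or left out, 77 with coding identifiers only, 81 with active entries listed at 0 taken as inactive (71 of the 86 stayed, 15 left and 10 joined), and 59 with those below 0.05 taken as inactive. The last is similar in size but holds different genes, as 8 of the 86 stayed, 78 left and 51 joined, so membership depends on the call at low activity. The geometric mean with a pseudocount of 0.01 gave 0.0239 in place of the median of 0.01 for active entries, and a ratio of 28.1 in place of 93 to genes whose entries are all active. The ratio from the highest entry of each gene, the locus length by symbol matches only and the CpG number with 1 value per gene were added after seeing the data and are among the 21. The median CpG number of genes above 0.05 without Gnas, added likewise, was 5.5 in place of 14.5. Leaving out each replicate was not run, as the table holds pooled values. No paired analysis was possible because there is 1 group and 1 pooled value per entry. Rounding to 0.01 limits every comparison among the 65 genes at 0.01 or lower.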
